A study of Drosophila melanogaster with 2 samples.

Results

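The genes that encode the subunits of the proteasome were examined for binding of abrupt (ab), a DNA-binding regulator with zinc fingers and a BTB domain, in Drosophila melanogaster embryos. Members were the protein-coding genes whose symbol starts with Rpn or Rpt and a digit, or with Prosalpha or Prosbeta. This gave 48 of 13945 protein-coding genes on the 6 chromosome arms analysed. They were separated into 14 genes of the core particle, 18 of the regulatory particle and 16 testis-type copies, whose symbols carry an R or T after the digit (Rpt3R, Prosalpha3T). The 14 and 18 together are called the 32 canonical subunits below. The territory of a gene was its body and 1 kb on either side.

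The proteasome is the machine that degrades proteins tagged with ubiquitin. Its core particle is a barrel of stacked rings, with alpha subunits forming the gates and beta subunits holding the protease sites inside. The regulatory particle caps the barrel: its base unfolds substrates with a ring of Rpt ATPases and its lid removes ubiquitin. In Drosophila several subunits have a duplicate gene used in the male germ line, and the canonical genes are active in most cells.

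The data were chromatin immunoprecipitation sequencing (ChIP-seq) of whole embryos of both sexes, 0 to 24 hours old, in 1 group of 2 biological replicates. All embryos were ab-GFP transgenics, with green fluorescent protein joined to the C-terminus of ab, and an antibody against that tag was used. Chromatin was sonicated to 200 to 800 bp. Every library carried the tag, so no group lacking it enters these results, and a mixture of all embryonic tissues cannot show in which cells a region was bound. No test between groups exists in this design, so counts of members are given beside the same count over all protein-coding genes.

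Regions came in 2 grades. The pooled list holds 21376 relaxed regions from the joined replicates, with signals from 14.9 to 1006.7 and a median of 20.4. The reproducible list holds the strongest 1664 of these, with signals from 51.8 upward and a median of 75.1. The signal is the authors' own score for a region, used here to rank and describe, and its scale is not given in the sources used here. Read depth was unknown. Each replicate also had its own list of 30000 regions, which differed in median signal (8.68 in replicate 1 and 11.5 in replicate 2) and in median width (384 and 600 bp).

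The share of proteasome genes with a reproducible peak was near that of all protein-coding genes, and most such peaks lay closest to the start of a neighbouring gene. A reproducible summit fell in the territory of 6 of the 48 members, or 12.5% (95% Wilson interval 5.86% to 24.7%, counting error only), beside 13.2% of all protein-coding genes. The 6 were Prosalpha6 and Prosbeta6 of the core particle and Rpn2, Rpn3, Rpn5 and Rpn10 of the regulatory particle. That made 2 of 14 core genes, 4 of 18 regulatory genes and 0 of 16 testis-type copies (interval 0% to 19.4%). The share of members was thus near the background. Of the 9 peaks in these territories, 8 had another gene's transcription start site (TSS) as the nearest one. Rpn5 held 3 of the 9 and Rpn2 held 2. The same share over all reproducible peaks is not given here, so it cannot be called particular to the members.

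Sequences at some of the summits are printed here. They are given 5′ to 3′ on the strand of the proteasome gene, from the RefSeq sequence of dm6. Each window spans 50 bp on either side of the summit, shortened where it would run through over 30 bases of an untranslated region (UTR). Capitals mark matches on either strand to TATCGATA (the DNA replication-related element, DRE, bound by DREF), CGATA (bound by BEAF-32 and contained in the DRE), GGTCACAC (bound by M1BP), CAGCTG (an E-box), GAGAG (bound by GAGA factor) or TGACNNNGC (the antioxidant response element, bound by Cnc with a small Maf). The first 6 windows lie under reproducible summits.
Rpn5, downstream summit, chr3R:5791759-5791859, plus strand: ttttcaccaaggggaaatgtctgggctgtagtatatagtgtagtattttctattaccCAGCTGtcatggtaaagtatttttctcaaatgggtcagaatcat
Rpn5, summit in Hat1, chr3R:5789058-5789158, plus strand: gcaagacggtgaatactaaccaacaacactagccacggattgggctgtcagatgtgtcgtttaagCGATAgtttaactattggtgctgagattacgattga
Rpn2, stronger summit, chr3R:29157774-29157874, plus strand: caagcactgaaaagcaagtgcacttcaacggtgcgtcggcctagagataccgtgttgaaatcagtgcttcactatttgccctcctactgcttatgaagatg
Rpn10, chr3L:21539465-21539565, plus strand: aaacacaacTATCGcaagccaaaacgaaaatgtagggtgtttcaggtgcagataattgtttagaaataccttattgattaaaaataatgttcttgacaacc
Prosalpha6, chr2L:10221092-10221165, plus strand: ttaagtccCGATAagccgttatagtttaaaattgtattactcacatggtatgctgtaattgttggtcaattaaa
Rpn3, chr2L:19051855-19051884, plus strand: accgtaaaacgTATCGATAaattgaaacgt

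The next 4 windows lie under the strongest relaxed region of a gene with no reproducible peak, and the last is the start of a gene with no pooled region. They are examples: the regions of Rpn6 (43.3), Prosalpha4 (42.5) and Rpn13 (40.7) are not printed. All 4 hold CGATA, as does the region of Rpn6, while those of Prosalpha4 and Rpn13 have none within 50 bp of the summit. CGATA lay within 50 bp of the strongest pooled summit in 14 of 29 canonical subunits, beside 16.1% of the 1664 reproducible summits. Prosalpha1, also without a pooled region, has CGATA at its start, unlike Rpt4.
Rpn11, chr2L:5059761-5059860, minus strand: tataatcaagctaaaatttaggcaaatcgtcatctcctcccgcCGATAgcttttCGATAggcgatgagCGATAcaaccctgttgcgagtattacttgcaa
Rpn12, chr3L:16582938-16583038, plus strand: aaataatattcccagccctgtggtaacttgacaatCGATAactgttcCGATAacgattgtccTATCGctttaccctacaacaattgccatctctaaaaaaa
Rpt5, chr3R:23752820-23752905, plus strand: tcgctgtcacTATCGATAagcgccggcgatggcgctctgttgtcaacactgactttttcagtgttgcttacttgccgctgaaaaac
Rpn7, chr3R:22462025-22462089, minus strand: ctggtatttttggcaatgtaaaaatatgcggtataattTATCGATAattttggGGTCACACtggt
Rpt4, chrX:6291216-6291295, minus strand: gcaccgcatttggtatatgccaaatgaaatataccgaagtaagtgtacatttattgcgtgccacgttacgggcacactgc

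Rpn5, a scaffold subunit of the lid, held the strongest signal of all members and 3 of the 9 peaks. Its strongest summit, at position 5791809 of chromosome arm 3R in dm6, had a pooled signal of 241.0, the 65th highest of the pooled list. The replicates gave 136.8 and 107.4, ranks 57 and 79 of their lists. This summit lay outside any gene, 240 bp past the end of Rpn5 and 70 bp upstream of the start of Hpf1, whose counterpart in mammals is a cofactor of histone ADP-ribosylation. Its window holds an E-box and none of the other capitalised motifs.

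The other Rpn5 peaks sat at the opposite end, where Rpn5 and Hat1, a histone acetyltransferase gene on the other strand, start 109 bp apart. The stronger had a pooled signal of 119.5 (57.4 in replicate 1 and 51.1 in replicate 2) at 385 bp upstream of Rpn5, and only 34 bp from a start of Hat1. The weaker, 200 bp closer to Rpn5, had a pooled signal of 66.7 and was uneven between replicates. Its nearest region in replicate 1 had 9.51, rank 11803, and in replicate 2 it shared the region of 51.1 with its neighbour. Both summits fell in an annotated Hat1 intron.

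Rpn3, another lid scaffold, was the only member that was itself the nearest gene to a reproducible summit: 1 of 48 members (2.08%), beside 9.38% of all protein-coding genes. The summit lay 66 bp inside Rpn3, in its 5′ UTR, with a DRE in the window printed above. Its pooled signal of 55.6 was rank 1453 of the list. Replicate 1 gave 17.2 and replicate 2 gave 33.6, ranks 3004 and 1425. The divergent gene l(2)37Bb starts 178 bp from Rpn3 and 244 bp from the summit.

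Prosalpha6, a subunit of the alpha ring, shares its upstream region with Npc1a, a sterol transport gene that starts 135 bp away on the other strand. The reproducible summit (pooled signal 58.3, with 21.9 and 42.9 in replicates 1 and 2) was 209 bp upstream of Prosalpha6 but 74 bp inside Npc1a, in its 5′ UTR. A weaker relaxed region, signal 38.6, lay 13 bp inside Prosalpha6 itself. It took the same 21.9 from replicate 1, so replicate 1 did not separate the pair, and 10.3 from replicate 2.

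The remaining 3 members had their reproducible peaks past the gene end. Prosbeta6, a subunit of the beta ring, had a summit 113 bp beyond its end and 60 bp inside CG4098, with a pooled signal of 55.6 (22.6 and 34.9 in the replicates). Rpn10, a ubiquitin receptor, had a summit 933 bp beyond its end and 68 bp upstream of COX8, a cytochrome oxidase subunit gene, with a signal of 63.7 (41.5 and 19.3). Rpn2, the large scaffold of the base, had summits 569 and 789 bp beyond its end, 298 and 78 bp upstream of rdog. With a flank of 200 bp instead of 1 kb, Rpn2, Rpn10 and also Prosalpha6 would have no reproducible peak.

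The stronger Rpn2 summit had a pooled signal of 89.8 with 53.7 and 29.1 in replicates 1 and 2, and the weaker had 54.9 with 24.3 and 19.7. Rpn2 and Rpn10 were higher in replicate 1, and Rpn3, Prosalpha6 and Prosbeta6 in replicate 2. Over the 9 peaks replicate 2 was higher in 4 and replicate 1 in 5, and the log2 ratio of replicate 2 to replicate 1 had a mean of 0.24 and an SD of 1.11. The replicate scores were made separately, so this SD, 2.16-fold, includes any difference of scale that varies with signal. The mean and SD also use 1 replicate 2 region, of 51.1, for both upstream Rpn5 peaks, the weaker of which had 9.51 in replicate 1.

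**Figure D1:**
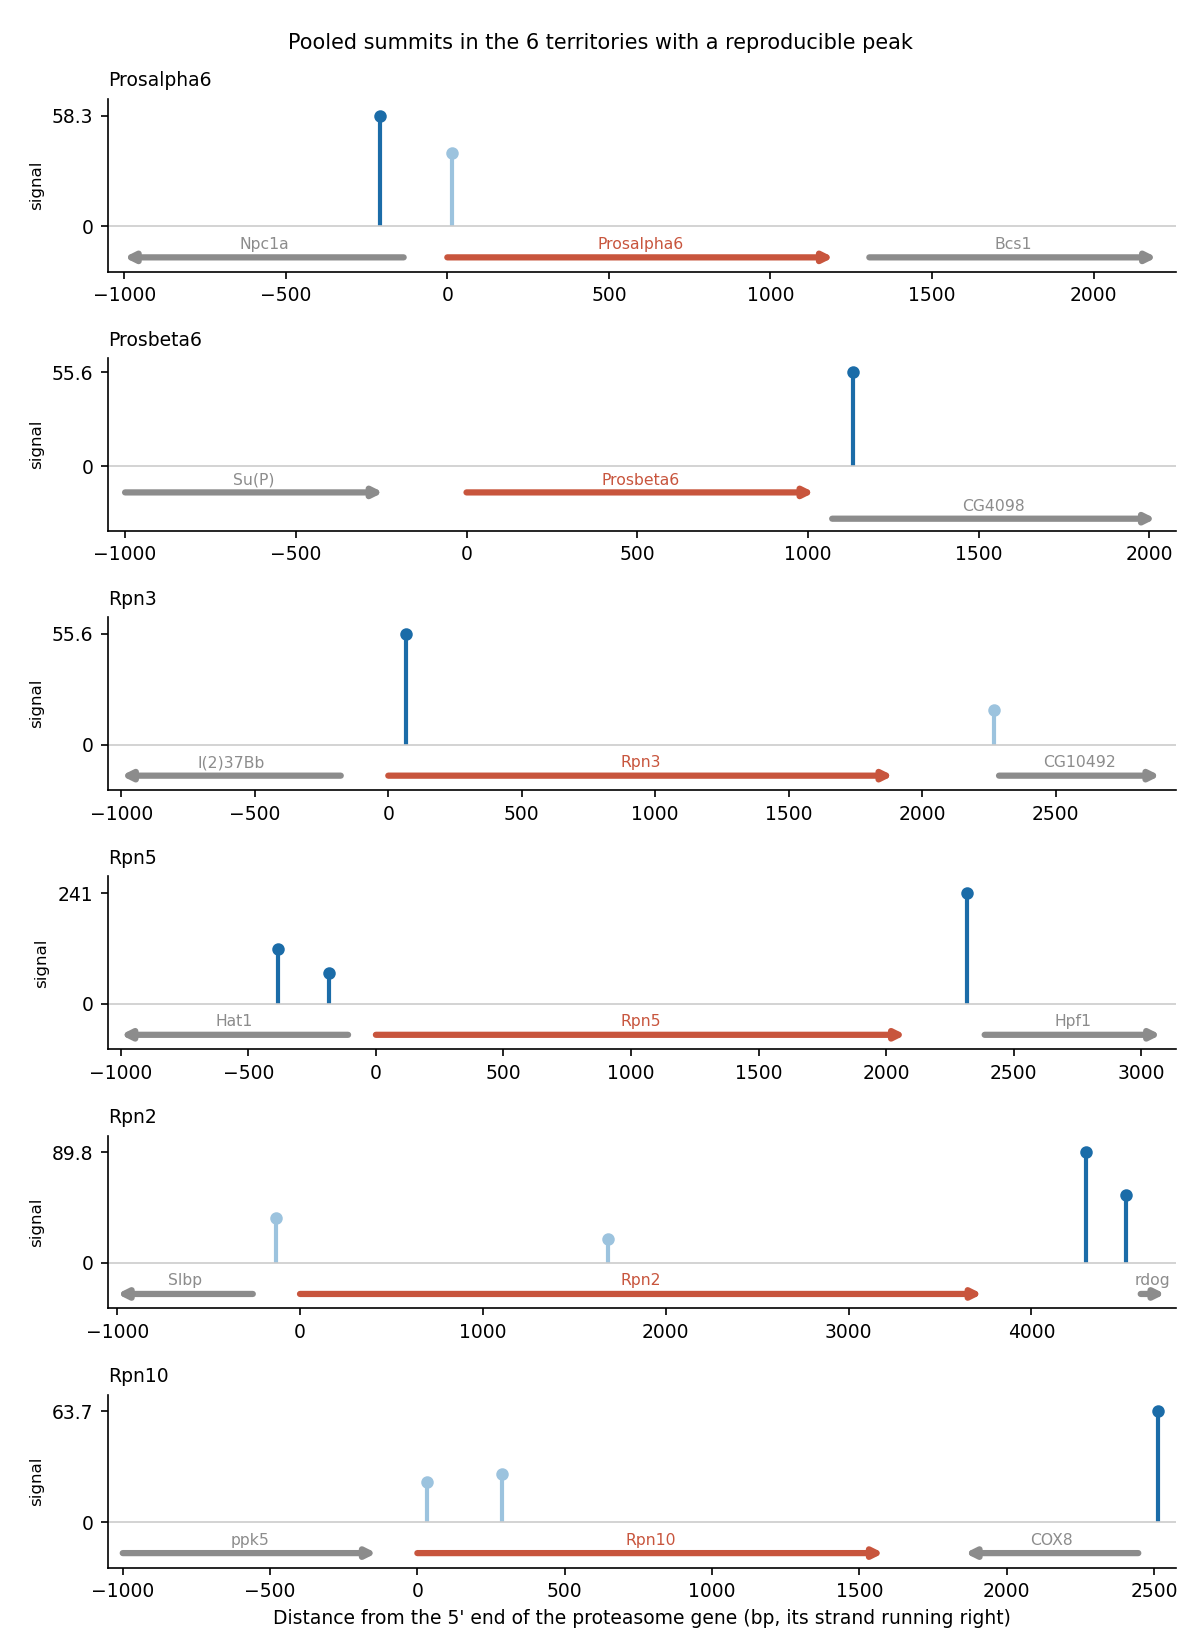
Pooled summits in the territories of the 6 proteasome genes with a reproducible peak, with distance in bp from the gene's 5′ end on the horizontal axis and pooled signal on the vertical axis, which has its own range in each panel. Dark stems are reproducible peaks, light stems are weaker pooled regions, the red arrow is the proteasome gene and grey arrows are neighbours; the dark stems stand at the start of another gene except in Rpn3.

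The peaks were read against the starts of all genes. All reproducible peaks were nearer another TSS for 5 of the 6 members with a peak (83.3%), and for 694 of the 1843 protein-coding genes with a peak (37.7%). With 6 genes the share moves by much with each gene. A reproducible summit lay within 500 bp of an own TSS for Prosalpha6, Rpn3 and Rpn5, 3 of 48 members or 6.25%, beside 8.44% of all protein-coding genes. The strongest reproducible peak per gene had a median signal of 61.0 over the 6 members, from 55.6 to 241.0, and of 79.6 over the 1843 genes. All but that of Rpn5 and Rpn2 lay below the median of the reproducible list.

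**Figure D2:**
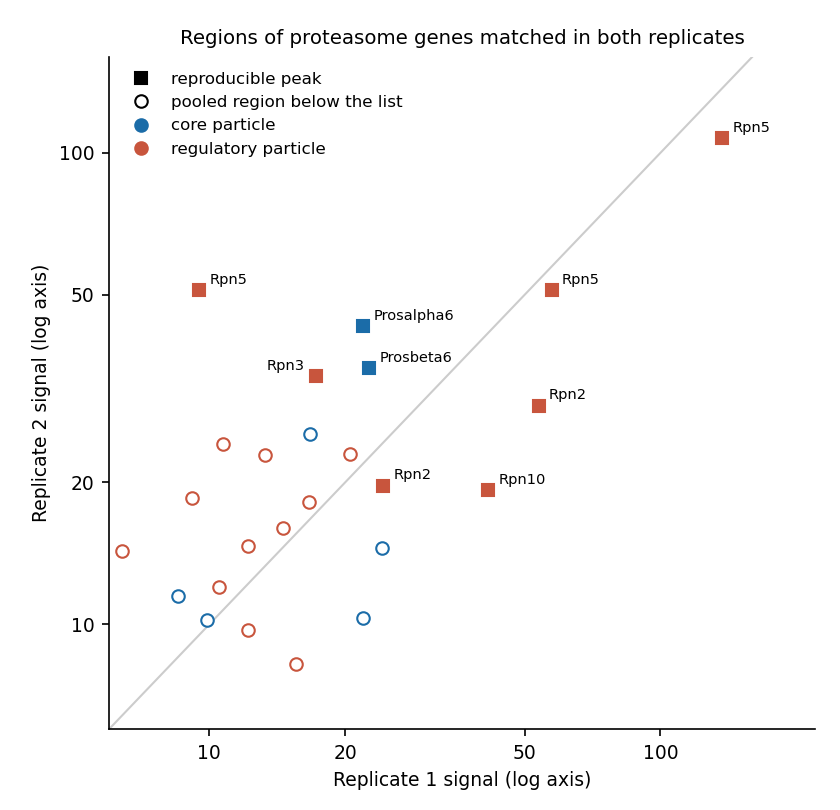
Signal in replicate 1 (horizontal) and replicate 2 (vertical), both on log axes, of the member regions matched within 200 bp in both replicates; filled squares are the 9 reproducible peaks, open circles weaker pooled regions, and the grey line marks equal scores. The strongest Rpn5 peak, with 136.8 in replicate 1 and 107.4 in replicate 2, stands at the top right, and the third Rpn5 peak stands apart at 9.51 in replicate 1 and 51.1 in replicate 2.

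The replicates named mostly different members when each was ranked alone. Among the strongest 1664 regions of replicate 1, 3 of 48 members (6.25%) had a summit in the territory, Rpn2, Rpn5 and Rpn10, beside 14.2% of all protein-coding genes. Among those of replicate 2 there were 6 of 48 (12.5%), Prosalpha6, Prosbeta6, Prosbeta2R2, Rpn3, Rpn5 and Rpn13, beside 11.8% of all genes. Rpn5 was the single member in both. The same overlap was not counted over all protein-coding genes, so it cannot be called particular to the members. Neither core particle gene with a reproducible peak reached the strongest regions of replicate 1.

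In the relaxed pooled list the canonical subunits and the testis-type copies differed in their counts. A pooled summit lay in the territory of 33 of 48 members (68.8%), beside 63.4% of all protein-coding genes. These were 12 of 14 core genes, 17 of 18 regulatory genes and 4 of 16 testis-type copies. As shares that is 90.6% of the 32 canonical subunits (interval 75.8% to 96.8%) and 25.0% of the copies (10.2% to 49.5%), on either side of the background. The median territory length was 3201 bp in the core genes, 3762 bp in the regulatory genes, 3282 bp in the copies and 4166 bp over all protein-coding genes. These intervals treat genes as independent draws and cover counting error only.

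This contrast was not equal in the replicates. In the full list of replicate 1 a region fell in 37 of 48 members (77.1%, beside 73.1% of all genes), with 26 of 32 canonical subunits and 11 of 16 copies. In that of replicate 2 it fell in 31 of 48 (64.6%, beside 69.8%), with 27 of 32 canonical subunits and 4 of 16 copies. The copies' share was thus near the background in replicate 1 and below it in replicate 2. The strongest signals of the 11 copies with a replicate 1 region ran from 6.64 for Rpn12R to 12.3 for Prosbeta5R2, around that list's median of 8.68.

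**Figure D3:**
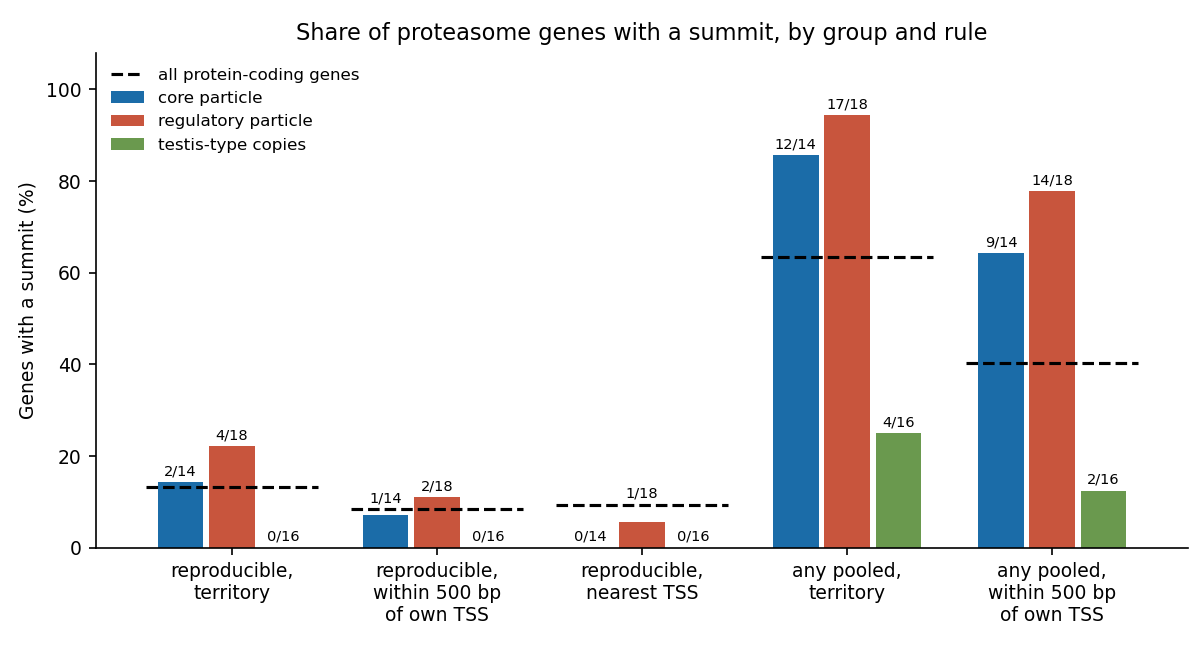
Share of the 14 core particle, 18 regulatory particle and 16 testis-type genes (bars, percent, with counts above) that have a summit under each of 5 rules, and the share of all protein-coding genes under the same rule (dashed line). Bars of the reproducible list stand near or below the line except that of the regulatory particle in the territory, at 4 of 18; in the pooled list the core and regulatory bars stand above the line and the testis-type bars below it.

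At the starts themselves the same order held. A pooled summit lay within 500 bp of an own TSS for 25 of 48 members (52.1%), beside 40.4% of all protein-coding genes. It did so for 9 of 14 core genes, 14 of 18 regulatory genes and 2 of 16 copies. Within the complex the count was 6 of 7 in the alpha ring, 3 of 7 in the beta ring, 3 of 6 for the base ATPases, 4 of 4 for the other base subunits and 7 of 8 in the lid. The signals there were ordinary: the 23 canonical subunits had a median of 27.4, and the 5635 genes with such a region 28.3.

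These summits sat close to the start. Of the 23 canonical subunits, 17 (73.9%) had the strongest promoter summit upstream of the TSS and 12 (52.2%) had it within 100 bp, with a median position 68 bp upstream. Over the 5635 genes, 70.7% were upstream, 37.0% were within 100 bp and the median was 80 bp upstream. In the reproducible list 88.0% of 1177 genes had the promoter summit upstream, and Rpn3, with its summit inside the gene, was in the minority.

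The lid genes other than Rpn3 and Rpn5 all had a pooled region, and the strongest were at their own start. Rpn6, a lid scaffold, had a signal of 43.3 at 68 bp upstream of a TSS, with 20.5 and 23.0 in replicates 1 and 2. Rpn11, the deubiquitinase that removes ubiquitin chains before degradation, had 43.1 at 20 bp upstream, with 13.3 and 22.9. Both lay below the weakest reproducible peak, 51.8, and both were present in each replicate. The Rpn11 window printed above holds 3 CGATA words.

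Weaker lid regions followed the same layout in part. Rpn7 had 27.4 at 15 bp inside the gene (12.2 and 14.7), at a start with a DRE and a GGTCACAC word. Rpn12 had 22.7 at 40 bp upstream, with 13.5 in replicate 2 and no match in replicate 1. Rpn8, the partner of Rpn11 in the lid, had its strongest region at 25.6 and 1222 bp from its nearest TSS, and 18.5 at 306 bp upstream, 19 bp from a start of the kinase gene Slik. Rpn9 had a signal of 19.3 in its 1 pooled region, with no match in either replicate.

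In the base, the non-ATPase subunits each had a pooled summit near their start. Rpn13, a ubiquitin receptor, had 40.7 at 468 bp upstream, 197 bp inside the cathepsin gene CtsL1, with 38.2 in replicate 2 and no region at all in replicate 1. Rpn2 had 36.6 at 133 bp upstream, between its start and that of Slbp, with 10.7 and 24.1. Rpn10 had 27.6 at 222 bp inside the gene (10.5 and 12.0), and Rpn1, a scaffold and docking subunit, had 20.5 at 88 bp upstream (15.6 and 8.23). None of these 4 regions reached the reproducible list, and that of Rpn13 rested on replicate 2.

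The 6 ATPase genes of the base had no reproducible peak. Rpt5 was highest at 32.5, 6 bp upstream of its start and 36 bp from that of RanBP3, with near-equal replicates (14.6 and 16.0). Rpt3 had 30.7 at 478 bp upstream, inside CG11122, with 24.6 in replicate 2 alone. Rpt2 had 25.9 within its coding sequence at 587 bp from the start, with 15.9 in replicate 2 alone. Rpt6 had 16.2 at 28 bp upstream, with no match in either replicate. Rpt1 had 16.1 in its coding sequence, with 9.66 in replicate 1 alone. Rpt4 had no pooled region, only weak ones in the replicates (6.87 and 9.65), and its start window, printed above, has no capitals.

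In the alpha ring, Prosalpha4 had the strongest signal after Prosalpha6. It had 42.5 at 455 bp beyond the gene end, 286 bp upstream of eas, an ethanolamine kinase gene (16.7 and 25.4), and 34.3 at 335 bp upstream, 18 bp from kat80, a katanin subunit gene (24.1 and 14.5). Prosalpha3 had 26.1 at 65 bp upstream (9.86 and 10.2). Prosalpha7 had 23.0, Prosalpha5 15.9 and Prosalpha2 15.7, the last 5 bp inside the gene. The Prosalpha7 region was matched in replicate 2 alone, that of Prosalpha2 in replicate 1 alone and that of Prosalpha5 in neither. Prosalpha1 had no region in any list.

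The beta ring includes the 3 subunits with protease activity, Prosbeta1, Prosbeta2 and Prosbeta5. Prosbeta1 had 25.7 at 79 bp upstream, 42 bp from the start of Rrp42, with 23.1 in replicate 1 and no match in replicate 2. Prosbeta2 had 21.6 inside its coding sequence (8.53 and 11.5). Prosbeta5 had 23.1 beyond its end in Lsm10 and 20.1 at 163 bp upstream in dgo, both matched in replicate 2 alone. None of the catalytic genes had a reproducible peak.

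The other beta-ring genes were as weak, apart from Prosbeta6. Prosbeta4 had 23.7 at 568 bp beyond its end, inside CG17996, with 16.9 in replicate 1 alone. Prosbeta3 had 21.9 at 94 bp upstream, with 10.4 in replicate 1 alone. Prosbeta7 had no pooled region and 8.92 in replicate 2.

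**Figure D4:**
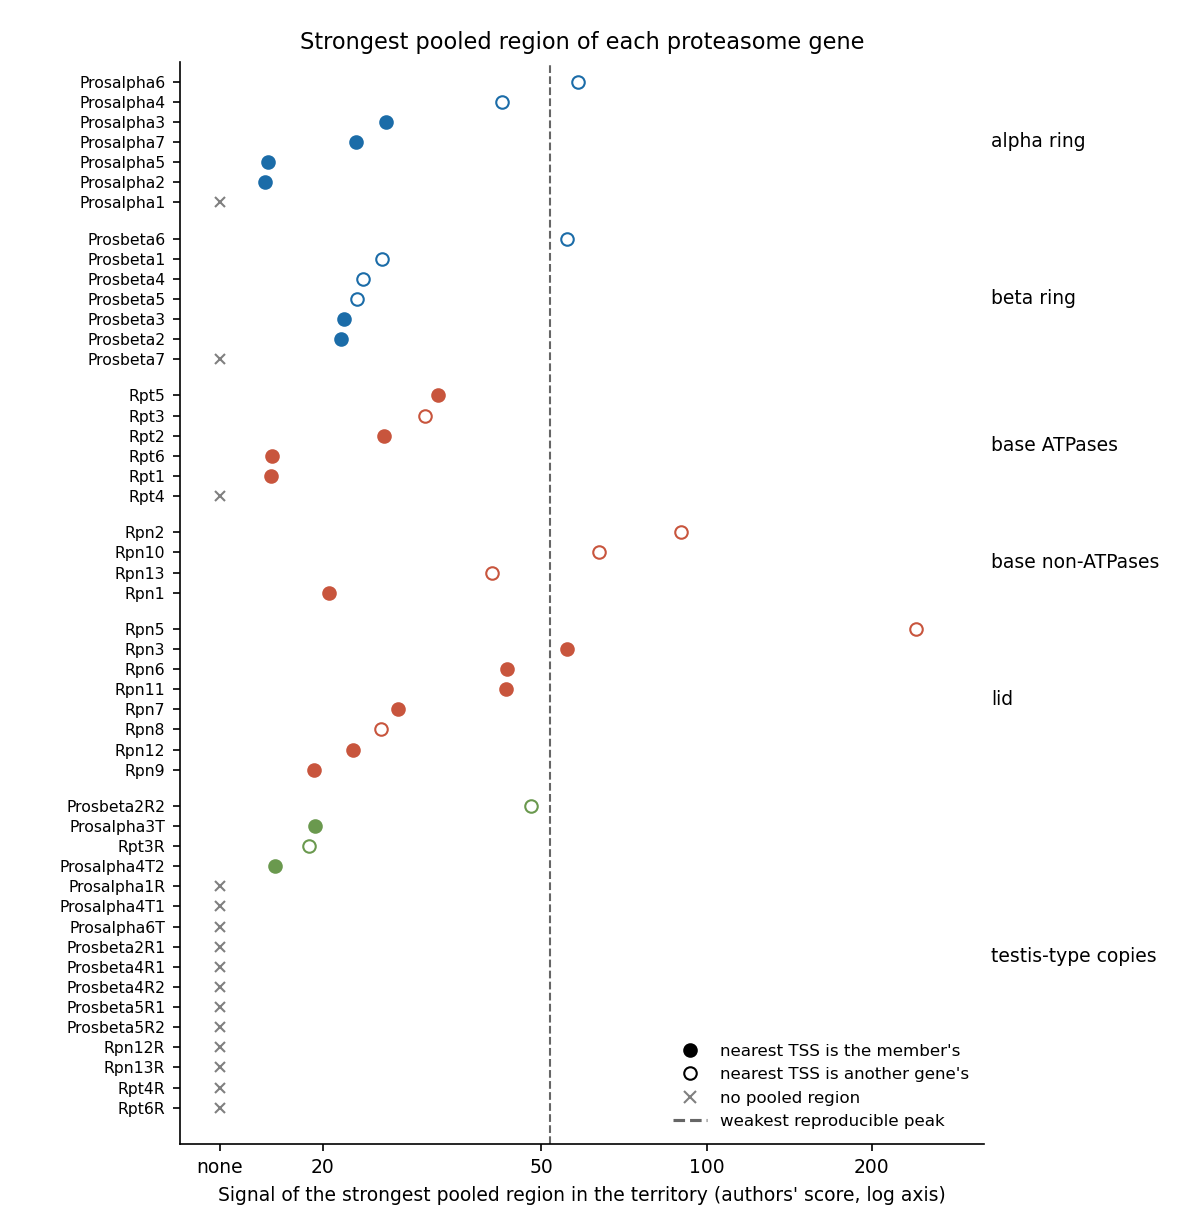
Signal of the strongest pooled region in the territory of each of the 48 proteasome genes (log axis, the authors' score), grouped by place in the complex. Filled points have the member's own TSS as the nearest, open points another gene's, crosses mark genes with no pooled region and the dashed line is the weakest reproducible peak, 51.8; Rpn5 stands alone at 241.0 and 12 of the 16 testis-type copies are crosses.

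Among the testis-type copies the strongest region was Prosbeta2R2, with 48.0, just under the weakest reproducible peak. It lay 282 bp beyond the gene end and 13 bp upstream of a start of cno, an adherens junction gene, with 44.6 in replicate 2 and no matching region in replicate 1. Prosalpha3T had 19.4 at 442 bp upstream, Rpt3R had 18.9 in its coding sequence, and Prosalpha4T2 had 16.4 and 15.6 inside the gene. No region of a copy was matched in both replicates. Prosalpha1R, Prosalpha6T, Rpn13R and Rpt4R had no region in any list, and with Prosalpha1 they were the 5 such members.

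Most weak regions in member territories leaned on a single replicate. Of 57 pooled regions in member territories, 33 had a match within 200 bp in replicate 1, 46 in replicate 2, 25 in both and 3 in neither. All 9 reproducible peaks were matched in both, and 16 of the other 48. The 57 regions were split evenly by neighbourhood, 29 nearest to the member and 28 nearest to another gene. For the strongest region of the 29 canonical subunits the split was 17 and 12. These matches and splits were not counted over all 21376 pooled regions, so they cannot be called particular to proteasome genes.

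**Figure D5:**
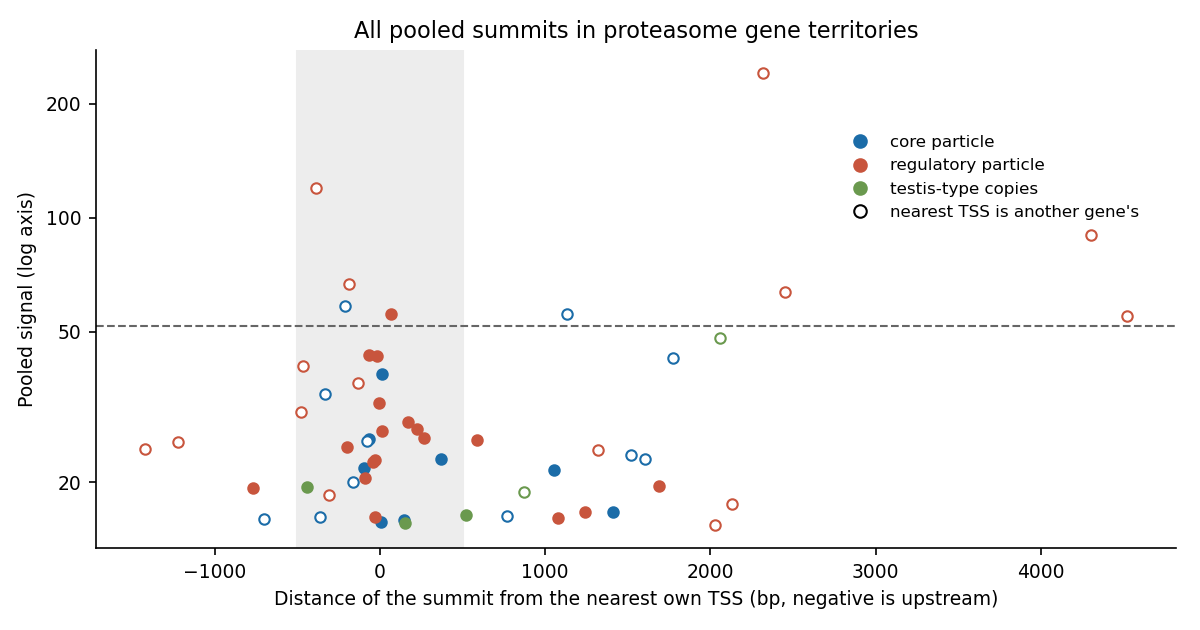
Signal (log axis) of all 57 pooled summits in member territories against their distance in bp from the nearest own TSS, negative upstream; the shaded band is 500 bp either side and the dashed line the weakest reproducible peak. Summits cluster at the start at signals under 50, while 5 of the 9 points above the line lie over 1000 bp downstream and are open, meaning that another gene's TSS is nearer.

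Canonical proteasome genes often start back to back with a neighbour. Of the 32, 21 (65.6%) had a protein-coding gene starting on the other strand within 500 bp upstream, beside 3 of 16 copies (18.8%) and 27.4% of all protein-coding genes. The closest was Rpt5 with RanBP3, 42 bp apart. Genes with such a start had more regions in general: 61.8% of them had a pooled summit within 500 bp of an own TSS, against 32.4% of the rest. Among the canonical subunits the counts were 15 of 21 with a divergent neighbour (71.4%) and 8 of 11 without (72.7%).

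For reproducible peaks in the territory the corresponding counts were 4 of 21 and 2 of 11 canonical subunits, with 22.0% and 9.92% of all protein-coding genes. The 2 without a divergent neighbour were Prosbeta6 and Rpn10. By arm, 0 of 13 members on 2R and 0 of 6 on X had a reproducible peak, beside 12.8% and 12.7% of all protein-coding genes there. Arms 2L, 3L and 3R held 8, 7 and 14 members with 2 each, beside 13.1%, 14.0% and 13.5% of all genes. With so few members per arm these counts cannot show whether the arms differ.

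The DRE, a word known from genes active in most cells, was found at more canonical starts than copies. TATCGATA occurred between 250 bp before and 50 bp after the start in 12 of 32 canonical genes, 0 of 16 copies and 9.37% of all protein-coding genes. CGATA, which also counts each DRE, was in 27 of 32, 8 of 16 and 47.5%. GGTCACAC was in 5 of 32, 0 of 16 and 7.71%, and TGACNNNGC in 5 of 32, 1 of 16 and 8.64%. GAGAG ran the other way, in 3 of 32, 6 of 16 and 29.8%.

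The remaining words were near or below their general share in the canonical starts. CAGCTG was in 1 of 32 canonical starts, 1 of 16 copies and 17.7% of all. TATAAA was in 13, 5 and 45.9%, and TCAGT, a core of the initiator, in 18, 9 and 51.6%. These are matches of letters on either strand, and do not show that a protein binds there.

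The same words occurred under the summits. Within 50 bp of the strongest pooled summit, the DRE was found in 6 of 29 canonical subunits, Prosalpha3, Prosbeta1, Prosbeta5, Rpn3, Rpn7 and Rpt5, and in 1.86% of the 1664 reproducible summits. CGATA was found in 14 of 29 and 16.1%, and GGTCACAC in 2 of 29 and 0.721%. GAGAG was in 0 of 29 and 11.4%, and TATAAA in 3 of 29 and 15.8%. The member summits are mostly relaxed ones near starts, so the reproducible summits differ from them in strength and place as well. For 12 of the 29 the nearest TSS was another gene's. Of those with a DRE, the summits of Prosbeta1 and Prosbeta5 lay nearest Rrp42 and Lsm10. Of those with CGATA, the summits of Prosalpha6, Prosbeta4 and Rpn10 also lay nearest a neighbour, Npc1a, CG17996 and COX8.

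At the 9 reproducible peaks of members, CGATA was found at 4 and the DRE at 1 (Rpn3), beside 16.1% and 1.86% of the 1664 reproducible summits. CAGCTG was found at 1 (Rpn5) and GAGAG at 1 (the weaker Rpn2 summit), beside 4.15% and 11.4%. TATAAA was found at 1 and TCAGT at 2, beside 15.8% and 20.1%. TGACNNNGC and GGTCACAC were found at 0 of the 9, beside 3.0% and 0.721%. TGACNNNGC was under the strongest pooled summit of 3 of 29 canonical subunits, beside 3.0% of reproducible summits.

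Genes that build, regulate or supply the proteasome were listed separately. Of 25 matched partners 4 had a reproducible peak and 20 a pooled region, beside 13.2% and 63.4% of all protein-coding genes, so the reproducible count was near the background. By role these were 2 of 8 for assembly and regulation, 1 of 6 for regulators of subunit genes and 1 of 11 for ubiquitin supply and delivery. The strongest was Keap1, whose product holds the transcription factor Cnc in check, with 98.7 (47.9 and 42.8) at 785 bp upstream and nearer to kuk. The gene cnc itself had 11 pooled regions and no reproducible one.

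Pomp, the chaperone that assembles the core particle, had a peak of 68.9 at 186 bp upstream of its own start, with 51.9 in replicate 1 and 15.5 in replicate 2. The F-box gene ntc, which acts on caspases and the proteasome in the male germ line, had 81.1 (42.1 and 28.7) at 139 bp upstream and 112 bp from IntS10. Ubi-p63E, a polyubiquitin gene, had 56.1 (29.4 and 14.6) at 138 bp inside its start. These 4 had higher scores in replicate 1. The 9 member peaks went both ways, with replicate 1 higher in 5 and replicate 2 in 4, and the replicate scores were made separately.

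Related complexes were set beside the same shares of all protein-coding genes, 13.2% with a reproducible peak and 63.4% with a pooled region. With 8 genes each, the counts below cannot tell a complex from that background. For the COP9 signalosome, built much like the lid, 8 genes were matched by symbol. These were CSN1a, CSN1b and CSN3 to CSN8, with no gene of the symbol CSN2. A reproducible peak lay at 0 of these 8 and a pooled region at 7 of 8. The CCT chaperonin, a ring complex that folds proteins, had 1 of 8, CCT8, with 59.4 (39.9 and 24.3) and a summit 21 bp from CG30349, and a pooled region at 7 of 8.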

How the data were processed

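ChIP-seq region lists of 2 biological replicates of ab-GFP embryos, their pool and a reproducible set were used on dm6, and the dm3 lists were not used here. Per the deposited description files, the authors made relaxed regions from each sample and a control and a reproducible list by the irreproducible discovery rate method. The deposited signal values are the authors' score for each region. The aligner, peak caller, versions and thresholds are not named by any source used here. The summit is the deposited offset (another number per region, in bp) added to the region start, printed 1-based.

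Each replicate list stops at 30000 regions. The labels call the replicates biological and give no more on their source. Read depth was unknown, so the intervals on shares (Wilson, 95%) cover counting error only.

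Genes and TSSs came from Ensembl release 115 and sequence from the RefSeq assembly of the same build. Replicate regions were matched by summits within 200 bp. Genes named are all members with a reproducible peak, the 5 strongest without, testis-type copies with a pooled region, the 3 strongest partners and the genes nearest to member peaks; the other members were named to account for all, and Ubi-p63E, CCT8 and cnc after their values were seen. The members and lists were chosen with earlier results of these data known. One listed partner, Ecm29, was not matched. Assignment of summits to genes was tested on simulated data. Alternatives were each replicate alone, stronger peaks, other assignments of peaks to genes and wider motif windows. Python 3.11.15, NumPy 2.4.6, pandas 2.3.3, SciPy 1.17.1 and matplotlib 3.10.9 were used.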

Additional observations from a re-analysis of the deposited data

How the results depend on the processing

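Counts of genes with a reproducible summit in the territory depended on how peaks were assigned. Restricted to the 832 strongest reproducible peaks, the core particle had 0 members, the regulatory particle 2 and all protein-coding genes 7.45%, and the median signal of the members with a peak was 165.4. With a flank of 200 bp these were 1, 2 and 9.48%; with a summit within 500 bp of an own TSS 1, 2 and 8.44%; and with the nearest TSS alone 0, 1 and 9.38%. Any overlap of the peak interval gave 3 core genes, 4 regulatory genes, 0 copies and 14% of all genes. All regions of the pooled list gave 12 core genes, 17 regulatory genes, 4 testis-type copies and 63.4% of all genes. Ranked by a single replicate, the counts ran from 0 to 2 in the core particle, from 3 to 3 in the regulatory particle and from 0 to 1 in the copies, with 11.8% to 14.2% of all genes; the core count of 0 came without replicate 2 and the copy (Prosbeta2R2) without replicate 1. With motif windows of 100 bp instead of 50 bp either side, 5 of 8 motif counts moved by over 1.5 times. The DRE stayed at 6 genes. A wider window cannot lower a count, and the shares of the 1664 reproducible summits rose as well. That of the DRE rose from 1.86% to 3.43% and that of TATAAA from 15.8% to 29.4%. The causes were not tested. No paired analysis was possible because the samples form 1 group. Unknown depth and the score's unstated scale limit every signal compared.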
